A study of Homo sapiens with 24 samples.

Results

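COLO-357 is an established line of human pancreatic ductal adenocarcinoma, and the experiment described here is its vehicle-treated cultures taken at 72 h set against those taken at 24 h. These are 6 of the 24 arrays of the series, chosen by cell line, treatment and time as labelled, with 3 biological replicates at 72 h and 3 at 24 h. The series treated COLO-357 and a second such line, AsPC-1, with PD-0332991 at 5 µM or with vehicle, and measured total RNA at both times on Illumina bead arrays. PD-0332991, also called palbociclib, blocks CDK4 and its close relative CDK6, kinases that act with D-type cyclins. The comparison asks what changes with 48 h more in culture when no drug is given. The groups used are COLO-357 with vehicle at 72 h and at 24 h, AsPC-1 with vehicle at 72 h and at 24 h, and COLO-357 with PD-0332991 at 72 h and at 24 h. COLO-357 was kept in DMEM and AsPC-1 in RPMI 1640, both with 5% FBS, penicillin and streptomycin, so cell line and base medium cannot be told apart. Per the labels the vehicle cultures differ in time of harvest alone. Cell density and medium changes are not given in the sources used here.

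Cancer cells left in culture grow denser and use up and condition their medium. Contact between cells dampens the YAP and TAZ coactivators of the Hippo pathway, nutrient shortage engages autophagy and amino acid sensing, and secreted factors can act back on the cells that made them. Genes of the cell division cycle follow the share of cells that are dividing. Bulk RNA measures the mean of a culture, so a change in the share of cells in a state and a change of the level in each cell cannot be told apart.

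The arrays of the 2 times differed in overall brightness before any normalisation. The median deposited signal was 90.6, 90.2 and 92.4 units on the 72 h arrays, against 133, 122.7 and 116.2 units on the 24 h arrays. The groups did not overlap, and the difference of means was -32.9 units (exact two-sided permutation test, p = 0.1, the smallest p that 3 arrays against 3 can give). The dimmer 72 h arrays nevertheless had more probes detected, with 19776 to 20697 at 72 h and 18520 to 19495 at 24 h. In COLO-357 under PD-0332991 the medians were 85.5 to 89 units at 72 h and 109.9 to 119.6 units at 24 h, and in AsPC-1 vehicle cultures 92.3 to 94.8 units at 72 h and 94.8 to 103.2 units at 24 h. Brightness thus moved with time in both COLO-357 courses, and its part in the changes below was not tested beyond refitting under other scalings. The changes below come from background-corrected, quantile-normalised log2 signals, which give every array the same distribution. The median SD between replicates was 0.17 at 72 h and 0.15 at 24 h on that log2 scale.

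**Figure D1:**
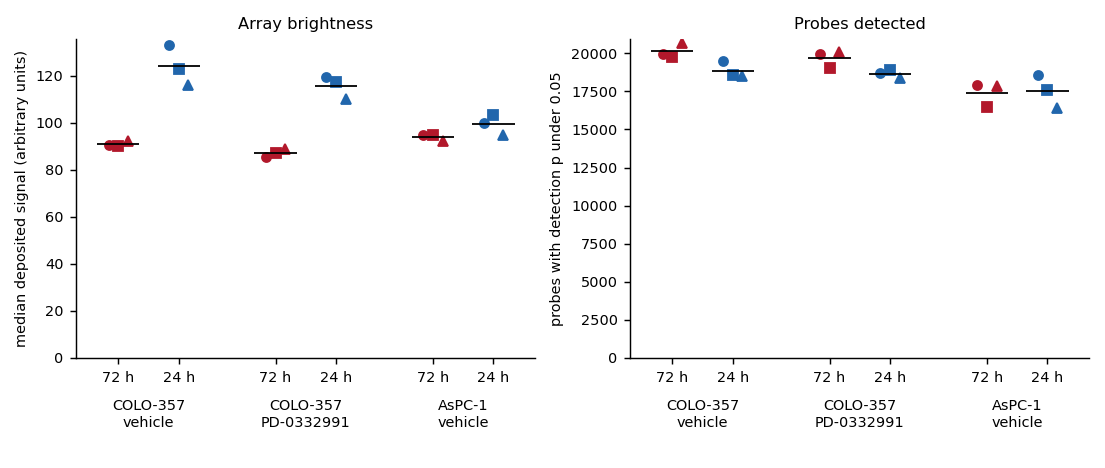
Median deposited signal per array in arbitrary units (left) and probes with a detection p under 0.05 per array (right), for the 3 time courses used. Red marks 72 h, blue 24 h, circles, squares and triangles replicates 1, 2 and 3, and lines group means: the COLO-357 vehicle arrays had medians of 90.2 to 92.4 at 72 h and 116.2 to 133 at 24 h.

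Across the array, 4358 of 24750 tested probes changed between 72 h and 24 h in COLO-357 vehicle cultures (17.6%; limma, Benjamini-Hochberg adjusted p under 0.05). Of these 2420 were higher at 72 h (9.78%) and 1938 lower (7.83%), and 541 had changed by 2-fold or more, 285 higher and 256 lower. The median log2 change of all tested probes was -0.01, with an interquartile range of -0.24 to 0.23. The 3 arrays of each time did not overlap for 9635 probes (38.9%). Calls were less frequent among dim probes: 7.05% in the dimmest of 5 equal bins of mean level, against 26.2% and 25.2% in the 2 brightest. In AsPC-1 vehicle cultures 535 probes changed between the same times (2.16%), and in COLO-357 under PD-0332991 5277 did (21.3%).

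The split between higher and lower calls depended on the scaling. It was 2208 higher and 3036 lower on the authors' own scaled values, 2421 and 2649 with scaling to the 75th percentile, and 626 and 10820 with no normalisation between arrays, which moved the median of all probes to -0.43. A change in overall RNA content per culture could not be seen by any of the normalised fits.

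Genes have names here through 6 deposited lists of genes that the authors had selected for a response to PD-0332991 or to a cyclin knockdown. These lists name 684 tested probes with 604 symbols, and each symbol is followed below through its named probe with the highest mean level; 7 current genes stand under more than 1 symbol. Of the 604 genes 153 changed (25.3%, beside 17.6% of all probes), 72 higher at 72 h (11.9%) and 81 lower (13.4%). This share is not read as a result, because the authors' COLO-357 drug lists rest in part on the same vehicle arrays. Genes that the authors' deposited table gives as lower under drug at 24 h, where the vehicle 24 h arrays are the comparison, numbered 223, and 8 of them were higher and 50 lower at 72 h than at 24 h. Genes that the authors' deposited table gives as lower under drug at 72 h, where the vehicle 72 h arrays are the comparison, numbered 166, and 32 of them were higher and 6 lower at 72 h than at 24 h. The 176 genes named through AsPC-1 lists alone were selected without any COLO-357 array: 39 of them changed (22.2%), 23 higher (13.1%) and 16 lower (9.09%).

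Among named genes the largest rises at 72 h belonged to a mixed set of membrane, channel, secreted and intracellular proteins. Among them were the peripheral myelin gene PMP22 and the peroxisomal oxidase gene ACOX2. The 15 largest rises and the 15 largest falls were taken from called genes whose 3 arrays of each time did not overlap. For those genes the lack of overlap was part of the choice and is no further support. By the authors' deposited table, 11 of the 15 largest rises are genes listed as lower under drug at 72 h. PMP22, which encodes a tetraspan membrane glycoprotein first known from growth-arrested fibroblasts and from myelin, had log2 signals of 9.95, 9.80 and 10.15 at 72 h, against 8.41, 8.30 and 8.64 at 24 h. All 3 arrays at 72 h lay above all 3 at 24 h, and the change was 1.52 ± 0.15 log2 (SE), or 2.86-fold (adjusted p = 1.8e-06).

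ACOX2, a peroxisomal acyl-CoA oxidase of bile acid and branched-chain fatty acid breakdown, had log2 signals of 7.53, 7.63 and 7.44 at 72 h, against 5.99, 6.27 and 5.85 at 24 h. Its groups did not overlap, and it rose by 1.50 ± 0.20 log2 (2.82-fold, adjusted p = 2.6e-05). LXN, latexin, an inhibitor of carboxypeptidases, had 10.60, 10.82 and 10.64 at 72 h, against 9.35, 9.69 and 9.44 at 24 h, a rise of 1.20 ± 0.14 log2 (adjusted p = 9.2e-06). FBXO32, the F-box protein atrogin-1 of a ubiquitin ligase known from muscle wasting, had 9.15, 9.02 and 9.43 at 72 h, against 7.84, 6.83 and 8.19 at 24 h, and rose by 1.58 ± 0.28 log2 (2.99-fold). For both genes the groups stood apart, and for FBXO32 the wider spread lay at 24 h, where replicate 2 was the lowest.

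Ion channel genes were among the rises. TRPM4, a cation channel opened by calcium, had log2 signals of 8.38, 8.47 and 8.38 at 72 h, against 7.44, 6.58 and 7.04 at 24 h, a rise of 1.39 ± 0.20 log2. ACCN2, now named ASIC1, a sodium channel opened by protons, lay between 7.98 and 8.36 at 72 h, against 6.54 to 7.22 at 24 h, a rise of 1.25 ± 0.17 log2. LOC389816, now LRRC26, an auxiliary subunit of the BK potassium channel, rose by 1.05 ± 0.27 log2 (adjusted p = 0.0085), and without replicate 2 at 72 h its adjusted p was 0.054. A second probe, listed under the current name LRRC26, rose by 0.96 ± 0.26 log2. In all 3 genes the 72 h arrays lay above the 24 h arrays.

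The other rises of at least 0.99 log2 by the same rule were STMN3, a stathmin that destabilises microtubules, with 12.03, 11.71 and 11.95 at 72 h against 10.90, 10.28 and 10.91 at 24 h, PRRX2, VPS37D, CEACAM1 and CASP9. PRRX2, a homeobox transcription factor, rose by 1.20 ± 0.24 log2, and VPS37D, a subunit of the endosomal sorting complex ESCRT-I, by 1.20 ± 0.21. CASP9, the initiator caspase of the mitochondrial death pathway, had 8.93, 8.63 and 9.07 at 72 h against 7.74, 7.85 and 8.07 at 24 h, a rise of 0.99 ± 0.18 log2 (adjusted p = 6.2e-04), and its second probe moved the same way. CEACAM1, a cell adhesion molecule of epithelia, was dim, with 6.80, 6.21 and 6.90 at 72 h against 5.82, 5.10 and 5.82 at 24 h, where it was detected on 2 of 3 arrays.

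For 4 of the rises replicate 2 stood apart from replicates 1 and 3, in most cases at both times. RARRES1, a membrane protein induced by retinoic acid, had log2 signals of 7.38, 9.49 and 7.62 at 72 h, against 5.48, 6.93 and 5.63 at 24 h. Replicate 2 was the highest at each time, the groups did not overlap, and the fitted rise of 2.15 ± 0.45 log2 (4.44-fold, adjusted p = 0.0020) was the largest of any named gene. IGFBP1, a secreted binding protein of insulin-like growth factors, had 7.82, 9.58 and 7.86 at 72 h, against 6.86, 7.49 and 6.87 at 24 h, a rise of 1.34 ± 0.30 log2 (adjusted p = 0.0034). Normalised and fitted on the 6 arrays alone, its adjusted p was 0.053. ADAMTSL4, a secreted protein of fibrillin microfibrils, had 6.32, 7.85 and 6.51 at 72 h, against 5.55, 6.23 and 5.24 at 24 h, a rise of 1.22 ± 0.34 log2 (adjusted p = 0.016). Leaving out replicate 2 at 72 h gave 0.74 log2 and an adjusted p of 0.14. ACTA2, smooth muscle actin, a gene of contractile cells, had 6.77, 8.05 and 6.89 at 72 h, against 6.25, 6.64 and 5.87 at 24 h, a rise of 0.98 ± 0.27 log2 (adjusted p = 0.015), and the call ended in 2 of the 6 fits that left out 1 array.

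**Figure D2:**
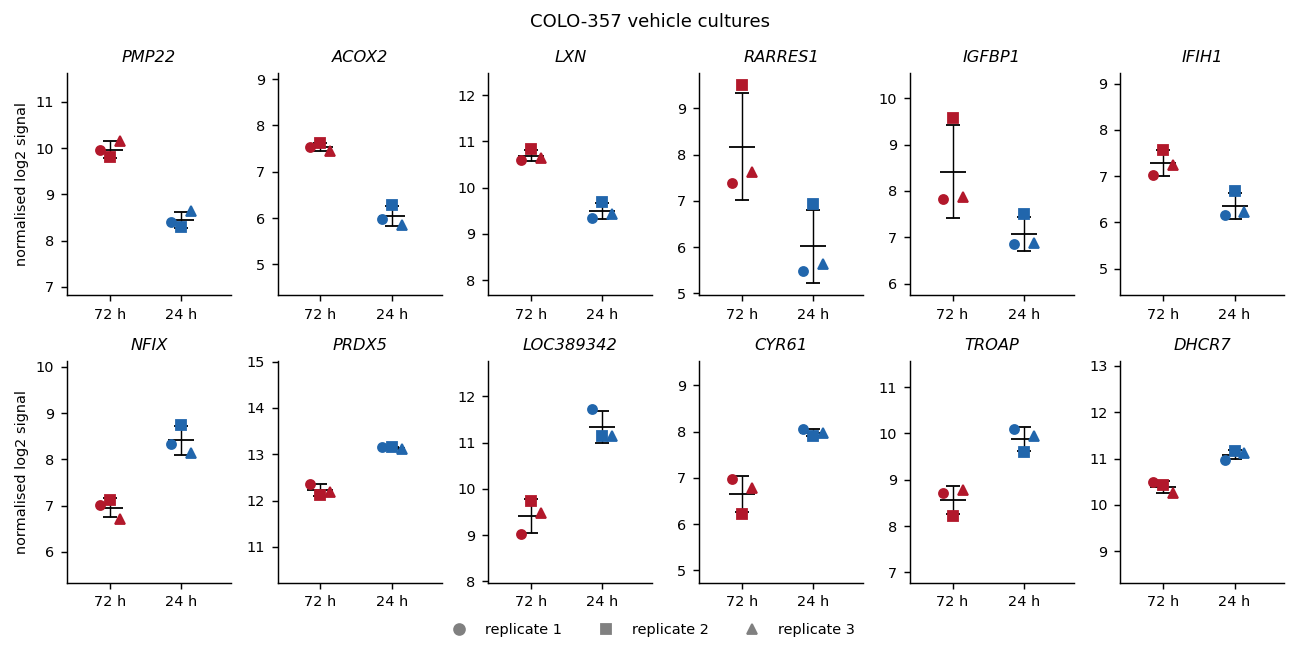
Normalised log2 signal of 12 named genes in COLO-357 vehicle cultures at 72 h (red, left in each panel) and 24 h (blue, right), with circles, squares and triangles for replicates 1, 2 and 3 and bars for the mean and SD of 3 arrays. Each vertical axis spans the same number of log2 units; for RARRES1 and IGFBP1 the squares lie highest at both times, while for PMP22 and PRDX5 the 3 arrays of a time lie close together.

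The same replicate was the lowest for several epithelial and secreted proteins. KRT80, an epithelial keratin, had log2 signals of 8.50, 7.24 and 8.44 at 72 h, against 9.59, 9.13 and 9.62 at 24 h, a fall of 1.39 on the log2 scale (SE 0.35, adjusted p = 0.0083), which had an adjusted p of 0.078 without replicate 2 at 72 h. CPA4, a carboxypeptidase, had 7.91, 5.74 and 7.79 at 72 h, against 7.87, 7.51 and 7.88 at 24 h, and LAMA3, a laminin chain of the hemidesmosome, had 9.07 and 8.77 in replicates 1 and 3 at 72 h, with replicate 2 far below them, against 8.97, 8.34 and 8.98 at 24 h. Neither of these 2 passed the test. AGR2, a disulfide isomerase of secretory cells, was the lowest in replicate 2 at both times, with 10.62, 8.64 and 10.51 at 72 h and 10.85, 8.82 and 10.65 at 24 h, and its time difference of -0.19 ± 0.53 log2 did not pass. Leaving out replicate 2 at 72 h gave 2799 changed probes in all, against 4358 with it.

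The largest falls at 72 h were of transcripts with placeholder names, of ribosomal protein pseudogenes and of a few regulators, among them the transcription factor gene NFIX and the Notch modifier gene LFNG. By the authors' deposited table, 10 of the 15 largest falls are genes listed as lower under drug at 24 h. Genes whose deposited name starts with LOC numbered 59, and 15 of them were lower at 72 h (25.4%) and 5 higher (8.47%). Of all 604 named genes 13.4% were lower and 11.9% higher, and of all probes 7.83% and 9.78%. The LOC share is not read as a result, because the COLO-357 drug lists rest in part on the same vehicle arrays.

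LOC389342, now RPL10P9, a pseudogene of the ribosomal protein gene RPL10, had log2 signals of 9.02, 9.74 and 9.47 at 72 h, against 11.72, 11.15 and 11.14 at 24 h. It fell by 1.93 on the log2 scale (SE 0.28, 3.8-fold lower, adjusted p = 6.2e-05), with no overlap between the times. It and LOC645452, now RPL21P68, which fell by 1.39 on the log2 scale (SE 0.17), resemble their parent genes, and the array signal of pseudogene and parent cannot be told apart. BCYRN1, the short non-coding RNA BC200, in part derived from an Alu repeat, had 8.80, 8.56 and 9.19 at 72 h, against 10.78, 10.63 and 10.21 at 24 h, a fall of 1.69 on the log2 scale (SE 0.21, adjusted p = 1.6e-05). LOC441087, a non-coding RNA by current annotation, had 10.07, 9.92 and 9.70 at 72 h, against 12.02, 11.31 and 11.64 at 24 h. All of its 72 h arrays lay below its 24 h arrays.

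LOC100130516 and LOC730313 fell by 1.78 and by 1.45 on the log2 scale, and FLJ36131 fell by 1.35. None of these 3 names matched a current gene, and each had its 3 arrays of 72 h below its 3 arrays of 24 h. HIATL2, a transcribed pseudogene now named SLC71A3P, fell by 1.39 on the log2 scale (SE 0.20).

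Of the named protein-coding genes that fell, NFIX, a nuclear factor I transcription factor, was named through the AsPC-1 knockdown list, in which no COLO-357 array was used. Its log2 signals were 7.01, 7.12 and 6.72 at 72 h, against 8.33, 8.75 and 8.15 at 24 h, without overlap, and it fell by 1.46 on the log2 scale (SE 0.24, 2.75-fold lower, adjusted p = 2.8e-04). LFNG, the fringe glycosyltransferase that modifies Notch receptors, had 7.86, 7.07 and 8.06 at 72 h, against 9.60, 8.62 and 9.42 at 24 h, a fall of 1.55 on the log2 scale (SE 0.28). FKBP14, a prolyl isomerase of the endoplasmic reticulum that acts on collagens, fell by 1.57 on the log2 scale (SE 0.23), and MCART1, now SLC25A51, the mitochondrial NAD+ carrier, by 1.42 (SE 0.20). DMC1, the recombinase of meiosis, had 8.10, 7.53 and 8.39 at 72 h, against 10.08, 9.02 and 9.11 at 24 h, and all 5 of these genes had their 72 h arrays below their 24 h arrays.

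CYR61, now CCN1, a secreted matricellular protein and a classic target of YAP and TAZ, had log2 signals of 6.97, 6.22 and 6.79 at 72 h, against 8.05, 7.91 and 7.98 at 24 h. The times did not overlap, and it fell by 1.32 on the log2 scale (SE 0.29, 2.5-fold lower, adjusted p = 0.0028). Of the 5 named genes on the list of YAP and SRF targets and immediate early genes, ACTA2 rose, CYR61 fell and 3 did not pass: DUSP1, a phosphatase of MAP kinases, at 0.15 ± 0.21 log2, RHOB, a small GTPase, at 0.26 ± 0.36, and JUN, an AP-1 subunit, at -0.10 ± 0.18. The median of the 5 was 0.15.

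Among the genes named through AsPC-1 lists alone, several others changed evenly, and the following 5 were chosen after their values had been seen. PRDX5, a peroxiredoxin of mitochondria and peroxisomes, had log2 signals of 12.36, 12.11 and 12.18 at 72 h, against 13.15, 13.15 and 13.10 at 24 h, a fall of 0.92 on the log2 scale (SE 0.11, adjusted p = 1.5e-05). CXXC5, a zinc finger inhibitor of Wnt signalling, fell by 0.76 on the log2 scale (SE 0.15, adjusted p = 0.0015). DNASE2, the acid nuclease of lysosomes, had 9.21, 9.82 and 9.40 at 72 h, against 8.53, 8.51 and 8.64 at 24 h, a rise of 0.91 ± 0.20 log2 (adjusted p = 0.0032). FZD4, a Wnt receptor, rose by 0.76 ± 0.19 log2 (adjusted p = 0.0081), and RAD21, a cohesin subunit, by 0.75 ± 0.13 (adjusted p = 5.4e-04). In each of the 5 the times did not overlap.

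Some interferon response genes were higher at 72 h in COLO-357 vehicle cultures and others did not pass. Of 12 named members of a list of 50, 6 rose, 0 fell and 6 did not pass, beside 9.78% of all probes higher and 7.83% lower, and the median was 0.44 log2 beside -0.01 for all probes. Of the 12, 11 were named through AsPC-1 lists alone, and the 6 that rose are among these 11, whose median was 0.62. The 6 were IFIH1, HERC5, IFIT3, OASL, IFI6 and UBE2L6.

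Type I interferon is sensed at the cell surface, and the complex ISGF3 then binds a response element with repeated GAAA blocks in the promoters of such genes. RefSeq (GRCh38.p14) promoter windows were available for 11 of the 12 genes, and the 250 bases before each start were searched on both strands for the core GAAANNGAAA. The core was found in 7 of the 11 windows, in 4 of the 5 that belong to genes that rose and in 3 of the 6 that belong to genes that did not pass, beside 3.02% of 35116 windows of all genes. The 4 risen genes with the core are shown with DDX60 and IFIT1, which hold it and did not pass, so that the sequences of both kinds can be compared. Each run is 60 bases on the strand of the gene, 5′ to 3′, with the match nearest the start in capitals; a match reading TTTCNNTTTC lies on the opposite strand.
IFIH1 (rose; chr2:162318685-162318744, minus strand): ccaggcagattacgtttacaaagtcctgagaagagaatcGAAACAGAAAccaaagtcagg
HERC5 (rose; chr4:88457020-88457079, plus strand): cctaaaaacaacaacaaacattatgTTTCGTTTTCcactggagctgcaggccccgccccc
IFIT3 (rose; chr10:89327850-89327909, plus strand): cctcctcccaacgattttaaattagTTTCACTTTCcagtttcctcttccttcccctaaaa
IFI6 (rose; chr1:27672251-27672310, minus strand): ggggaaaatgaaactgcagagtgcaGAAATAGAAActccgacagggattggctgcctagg
DDX60 (did not pass; chr4:168318771-168318830, minus strand): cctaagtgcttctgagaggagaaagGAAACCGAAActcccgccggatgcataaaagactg
IFIT1 (did not pass; chr10:89392495-89392554, plus strand): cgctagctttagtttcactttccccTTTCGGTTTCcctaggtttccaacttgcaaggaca
The printed match begins 21 bases before the start in IFIH1, 74 in HERC5, 122 in IFIT3, 93 in IFI6, 53 in DDX60 and 103 in IFIT1. The core was thus found both in genes that rose and in genes that did not pass, with too few windows to compare the shares. The list was made of interferon response genes, so its share beside all windows is a description. Whether the core bears on the changes was not tested.

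IFIH1, the cytosolic double-stranded RNA sensor MDA5, had log2 signals of 7.03, 7.57 and 7.24 at 72 h, against 6.16, 6.67 and 6.22 at 24 h. It rose by 0.93 ± 0.18 log2 (1.91-fold, adjusted p = 0.0010), with no overlap, and its call held in each of the 6 fits that left out 1 COLO-357 vehicle array. HERC5, the ligase that attaches ISG15 to proteins, had 8.76, 9.31 and 8.72 at 72 h, against 7.87, 8.26 and 7.85 at 24 h, a rise of 0.94 ± 0.23 log2 (adjusted p = 0.0066). Replicate 2 was again the highest at each time for both genes.

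IFIT3, an interferon-induced protein with tetratricopeptide repeats that acts beside IFIT1 on viral RNA, had 7.07, 7.09 and 6.76 at 72 h, against 6.22, 6.32 and 6.21 at 24 h, a rise of 0.72 ± 0.22 log2 (adjusted p = 0.028). UBE2L6, the conjugating enzyme of ISG15, had 10.91, 11.10 and 10.96 at 72 h, against 10.32, 10.43 and 10.37 at 24 h, a rise of 0.62 ± 0.17 log2. IFI6, a mitochondrial and endoplasmic reticulum protein, had 7.94, 8.44 and 8.07 at 72 h, against 7.42, 7.37 and 7.68 at 24 h, a rise of 0.66 ± 0.20 log2. In these 3 genes the times did not overlap. The IFIT3 call ended in 5 of the 6 fits that left out 1 array. It held under 1 of the 4 other scalings. In the same 6 fits the UBE2L6 call ended in 2 and the IFI6 call in 3, and both held under 3 of the 4 scalings.

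OASL, a relative of the oligoadenylate synthases, was dim and overlapped between the times, with 6.02, 5.35 and 5.84 at 72 h and 5.35, 4.82 and 5.01 at 24 h, where it was detected on 1 of 3 arrays, and its rise was 0.68 ± 0.21 log2 (adjusted p = 0.028). Of the members that did not pass, DDX60, a helicase, stood at 0.26 ± 0.19 log2 and SLFN11, a regulator of stressed replication forks, at 0.19 ± 0.30. DDX58, now RIGI, an RNA sensor, stood at 0.04 ± 0.29 and IFIT1 at 0.04 ± 0.18. IFI44, an interferon-induced cytoplasmic protein, stood at -0.07 ± 0.24 and HERC6, a ligase related to HERC5, at -0.09 ± 0.16. The number of risen members was 2 to 5 when 1 of the 6 arrays was left out, 2 of them without replicate 2 at 72 h, 4 on the authors' scaled values, and 1, beside 1 that fell, with no normalisation between arrays. Interferon transcripts are not on the named lists, and the 3 named antigen presentation genes did not pass, with PSMB10 at 0.33 ± 0.12 log2, HLA-DRA at 0.27 ± 0.19 and PSMB9 at 0.17 ± 0.21.

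Genes of mitosis were named in number because the drug lowers them, and in vehicle cultures few of them passed the test. Of 75 named members of a list of 98, 0 rose, 7 fell (9.33%, beside 7.83% of all probes) and 68 did not pass. The median was -0.16 log2 beside -0.01 for all probes. Of the 75, 0 were named through AsPC-1 lists alone, and the COLO-357 drug lists rest in part on these vehicle arrays. The count and the median are therefore given as descriptions. The members that fell were TROAP, FOXM1, TACC3, GTSE1, KIF20A, KIF22 and CDCA5. TROAP, a protein of the spindle, had log2 signals of 8.71, 8.22 and 8.78 at 72 h, against 10.09, 9.59 and 9.94 at 24 h, and fell by 1.31 on the log2 scale (SE 0.21, 2.47-fold lower, adjusted p = 1.5e-04). The times did not overlap, and TROAP was the only member of the list with a fall of 2-fold or more. Across the alternatives 4 to 41 members were lower and 0 to 5 higher; the 41, with a median of -0.59 log2, came with no normalisation between arrays.

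FOXM1, the transcription factor of late cell cycle genes, had 9.56, 8.88 and 9.26 at 72 h, against 10.26, 9.72 and 10.05 at 24 h, a fall of 0.77 on the log2 scale (SE 0.24, adjusted p = 0.029). TACC3, which steadies spindle fibres, fell by 0.69 on the log2 scale (SE 0.16), GTSE1, a microtubule-binding protein of the later cell cycle, by 0.67 (SE 0.17), and KIF20A, a kinesin of cytokinesis, by 0.65 (SE 0.22). KIF22, a kinesin that moves chromosome arms, fell by 0.54 (SE 0.11) and CDCA5, the cohesin protector sororin, by 0.44 (SE 0.14, adjusted p = 0.038). Well-known members did not pass, with AURKB, the Aurora kinase of the chromosomal passenger complex, at -0.49 ± 0.20 log2, BIRC5, survivin, at 0.04 ± 0.16, and CDC20, an activator of the anaphase-promoting complex, at 0.37 ± 0.13.

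A few genes of DNA replication and S phase passed in each direction. Of 30 named members of a list of 67, 4 rose, 2 fell and 24 did not pass, which is near the 9.78% higher and 7.83% lower of all probes, and the median was 0.08 log2. CDT1, which loads the replicative helicase, had log2 signals of 10.34, 10.46 and 10.54 at 72 h, against 9.64, 9.68 and 9.78 at 24 h, a rise of 0.75 ± 0.14 log2. CDC45L, now CDC45, a subunit of that helicase, had 11.63, 11.76 and 11.64 at 72 h, against 10.92, 10.95 and 10.94 at 24 h, a rise of 0.74 ± 0.13 log2 (adjusted p = 3.1e-04). PCNA, the sliding clamp of the replication fork, rose by 0.62 ± 0.13 log2, and CHAF1B, a histone chaperone subunit, by 0.68 ± 0.18. For these 4 genes the times did not overlap.

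In the same list ASF1B, a chaperone that hands histones to that complex, had 9.88, 9.75 and 9.68 at 72 h, against 10.70, 10.56 and 10.55 at 24 h, and fell by 0.83 on the log2 scale (SE 0.13, adjusted p = 1.6e-04). FEN1, the flap endonuclease, fell by 0.45 (SE 0.13), but its 2 probes had unequal signs. Of 11 named S phase repair genes FANCG, a subunit of the Fanconi anaemia core complex, rose by 0.95 ± 0.16 log2, 0 fell and 10 did not pass. With no normalisation between arrays the medians of the replication and repair lists turned to -0.33 and -0.27.

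None of the 6 named genes of the CDK4/6-RB pathway passed, 0 higher and 0 lower. CCND1, cyclin D1, had log2 signals of 13.59, 13.13 and 13.41 at 72 h, against 13.54, 13.45 and 13.60 at 24 h, with a difference of -0.16 ± 0.13 log2 (adjusted p = 0.45). CCNE2, cyclin E2, a partner of CDK2, had 8.45, 8.44 and 8.27 at 72 h, against 7.17, 8.11 and 7.56 at 24 h, without overlap, and its difference of 0.77 ± 0.28 log2 missed the threshold (adjusted p = 0.064). CDK2 itself stood at 0.05 ± 0.13, CDC25A, a phosphatase that activates it, at -0.34 ± 0.21, E2F2, an activating E2F factor, at 0.20 ± 0.17, and E2F7, a repressing one, at -0.23 ± 0.20.

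Of 8 named genes of sterol handling 3 rose, 1 fell and 4 did not pass, beside 9.78% of all probes higher and 7.83% lower. Their median of 0.14 log2 turned to -0.24 with no normalisation between arrays. ABCA1 and ABCG1, which export cholesterol, rose by 0.75 ± 0.22 and by 0.48 ± 0.14 log2. DHCR7, the last enzyme of cholesterol synthesis, had log2 signals of 10.50, 10.42 and 10.25 at 72 h, against 10.97, 11.17 and 11.12 at 24 h, and fell by 0.70 on the log2 scale (SE 0.15, adjusted p = 0.0022). The synthesis genes INSIG1 (a sterol sensor), HMGCS1 and ACAT2 (early enzymes) and EBP (a late enzyme) stood at -0.48 ± 0.23, -0.26 ± 0.21, 0.03 ± 0.15 and 0.26 ± 0.14 log2 and did not pass.

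Of 3 named genes of lysosome and autophagy 2 rose, a small number to set beside the 9.78% of all probes that were higher. ULK1, the kinase that starts autophagy, had log2 signals of 10.38, 10.70 and 10.43 at 72 h, against 9.98, 9.25 and 10.04 at 24 h, a rise of 0.75 ± 0.20 log2 (adjusted p = 0.010). MAP1LC3B, the LC3 protein of the autophagosome membrane, rose by 0.52 ± 0.14 log2 (adjusted p = 0.014), while CTSH, a lysosomal protease, stood at 0.03 ± 0.19. In both ULK1 and MAP1LC3B the times did not overlap, and each call ended in 2 of the 6 fits that left out 1 array. With no normalisation between arrays neither passed (adjusted p = 0.21 for ULK1 and 0.59 for MAP1LC3B).

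Of 8 named genes of amino acid stress 1 rose and 1 fell, near the 9.78% higher and 7.83% lower of all probes. Their median of 0.29 log2 turned to -0.10 with no normalisation between arrays. GPT2, the mitochondrial alanine transaminase, rose by 0.53 ± 0.16 log2, and WARS, now WARS1, the tryptophan tRNA ligase, which is also induced by interferon gamma, had 9.64, 9.74 and 9.52 at 72 h, against 10.31, 10.39 and 10.10 at 24 h, and fell by 0.64 on the log2 scale (SE 0.12, adjusted p = 0.0011). ASNS, asparagine synthetase, stood at 0.33 ± 0.15 log2, PSAT1 of serine synthesis at 0.05 ± 0.16, PCK2, the mitochondrial carboxykinase, at -0.10 ± 0.16, MTHFD2 of mitochondrial folate metabolism at 0.29 ± 0.15, CARS, a cysteine tRNA ligase, at 0.40 ± 0.16 and ADM2, a secreted peptide, at 0.30 ± 0.19. None of these 6 passed.

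Of 5 named secreted inflammatory factors 2 were higher, beside 9.78% of all probes, and 0 were with no normalisation between arrays. IL8, now CXCL8, which attracts neutrophils, had log2 signals of 7.58, 8.09 and 7.76 at 72 h, against 6.61, 7.58 and 7.12 at 24 h, a rise of 0.71 ± 0.24 log2 (adjusted p = 0.043) that hardly separated the times. The IL8 call ended under 3 of the 4 other scalings (adjusted p up to 0.246) and in 4 of the 6 fits that left out 1 array. IL32, a cytokine of the NF-kappaB response, rose by 0.61 ± 0.18 log2 (adjusted p = 0.019), and its call ended in 3 of those 6 fits. CFB, complement factor B, stood at 0.53 ± 0.23, CCL5, a chemokine, at -0.11 ± 0.21 and IL20RB, a receptor subunit, at -0.15 ± 0.39. IL20RB was lowest in replicate 2, with 9.12, 7.64 and 9.12 at 72 h and 9.31, 7.84 and 9.17 at 24 h.

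Among mesenchymal genes the caveolins fell. CAV1, the main coat protein of caveolae, had log2 signals of 10.23, 9.03 and 10.36 at 72 h, against 11.41, 10.52 and 11.21 at 24 h, a fall of 1.18 on the log2 scale (SE 0.30, adjusted p = 0.0096). CAV2, its partner, fell by 0.51 (SE 0.17, adjusted p = 0.045). Of the 6 named members 1, ACTA2, rose, while SNAI2, a repressor of epithelial genes, at -0.19 ± 0.17, and NT5E, a surface nucleotidase, at 0.35 ± 0.22 were among those that did not pass. The 2 probes of SNAI2 had unequal signs. The median of the 6, 0.02 log2, changed sign under 8 of 20 alternatives.

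Of 8 named genes of epithelial junctions and keratins, CEACAM1 rose, KRT80 fell and 6 did not pass, among them the tight junction genes CLDN1 at -0.05 ± 0.26, CLDN7 at 0.13 ± 0.13 and TJP3 at -0.27 ± 0.17 log2. The laminin gene LAMB3 stood at -0.74 ± 0.29 (adjusted p = 0.089). CLDN7, with 11.27, 11.28 and 11.18 at 72 h and 11.14, 11.02 and 11.19 at 24 h, was the only named marker of ductal epithelium, and it was detected on all 6 arrays. Of the markers of acinar, endocrine, stellate, endothelial and immune cells 0 were named, so RNA of other cell types was not tested.

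In the smaller lists 1 member or none passed, which is near the 17.6% of all probes called. PMEPA1, a target and inhibitor of TGF-beta signalling, fell by 0.62 on the log2 scale (SE 0.16, adjusted p = 0.011), as 1 of 4 named TGF-beta targets, beside COL4A1, a basement membrane collagen, at -0.03 ± 0.17. F3, tissue factor, fell by 0.67 (SE 0.23, adjusted p = 0.045) as 1 of 6 protease and invasion genes, but its 2 probes had unequal signs, and PLAU, urokinase, at -0.47 ± 0.21, MMP7, matrilysin, at 0.10 ± 0.25, and SERPINB5, maspin, at -0.03 ± 0.21 did not pass. ALDH3B1, an aldehyde dehydrogenase, had log2 signals of 7.34, 7.64 and 7.24 at 72 h, against 8.33, 8.33 and 8.60 at 24 h, and fell by 1.01 on the log2 scale (SE 0.26, adjusted p = 0.0086) as 1 of 8 genes of oxidative stress.

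ALDOC, a brain-type aldolase of glycolysis, had log2 signals of 10.77, 11.42 and 10.77 at 72 h, against 9.90, 10.17 and 10.13 at 24 h, a rise of 0.92 ± 0.19 log2 (adjusted p = 0.0015). Of the other 3 named hypoxia and glycolysis genes 0 passed, among them CA9, a carbonic anhydrase, at -0.47 ± 0.28, and DDIT4, an inhibitor of mTORC1, at 0.02 ± 0.20. YPEL5, of a conserved zinc-binding family, rose by 0.69 ± 0.18 log2 as 1 of 4 genes of growth arrest, beside TXNIP, an inhibitor of thioredoxin, at 0.25 ± 0.21, MXD4, a partner of MAX, at 0.41 ± 0.20 and TSC22D3, a glucocorticoid target, at 0.31 ± 0.22.

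None of the 5 named mucin and secretory genes and none of the 3 named metallothioneins passed. MUC5AC, a secreted mucin, stood at 0.73 ± 0.32 log2, VIL1 and MYO1A of the brush border at -0.26 ± 0.31 and -0.06 ± 0.28, and MT2A, a metal-binding protein, at -0.46 ± 0.47, with replicate 2 the lowest for MT2A at both times (11.92, 10.10 and 11.83 at 72 h, and 12.24, 10.82 and 12.16 at 24 h). Of 28 p53 targets 0 were named.

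**Figure D3:**
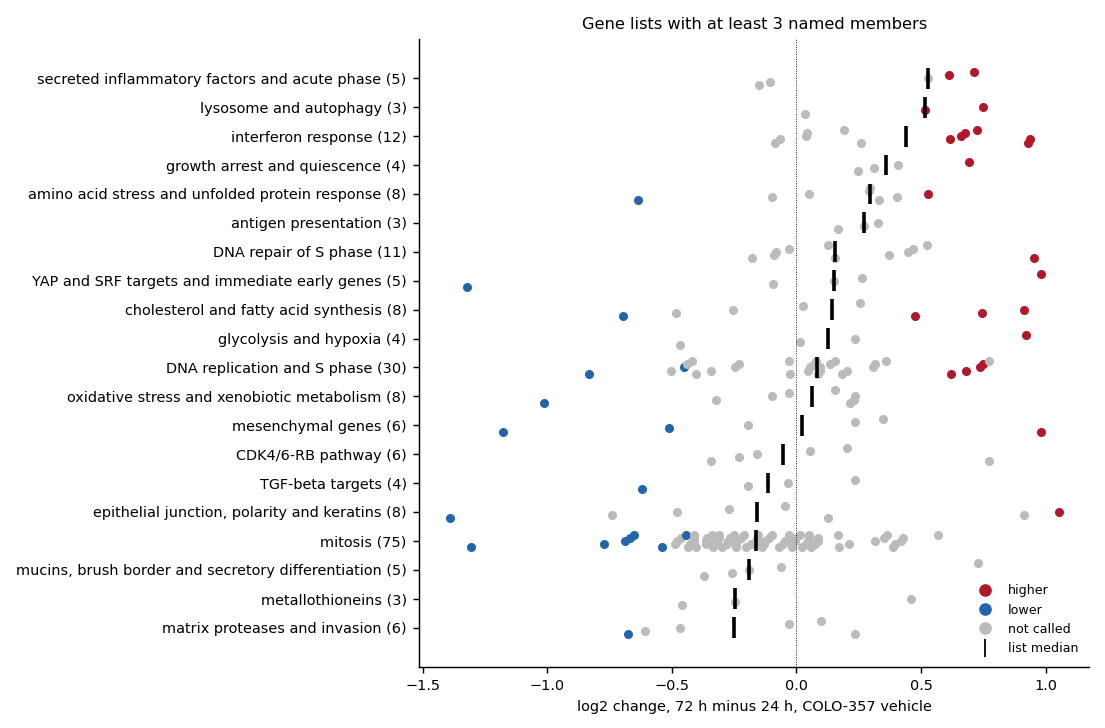
Log2 change at 72 h minus 24 h in COLO-357 vehicle cultures for the named members of each gene list, 1 point per gene, with the number of named members in brackets. Red points were called higher, blue lower and grey not called, and the black bar is the list median: 6 of 12 interferon genes are red with a median of 0.44, and 68 of 75 mitosis genes are grey with a median of -0.16.

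The difference of the time effect between the lines was tested directly, as COLO-357 minus AsPC-1 in vehicle cultures. It was called for 2071 probes (8.37%), positive for 1122 (4.53%) and negative for 949 (3.83%), and for 102 of the 604 named genes (16.9%). Across all probes the time effects of the 2 lines had a Pearson r of 0.10, and across named genes 0.18; these are descriptions over probes of the same arrays, with line, medium and the change of brightness with time differing between the courses.

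The largest named negative differences came from genes that rose in AsPC-1 and did not pass in COLO-357. GPX2, the epithelial glutathione peroxidase, had log2 signals of 14.22, 13.98 and 14.19 at 72 h and 14.28, 14.16 and 14.23 at 24 h in COLO-357, a difference of -0.10 ± 0.20 log2, beside 2.92 in AsPC-1 (difference of the effects -3.02 ± 0.29, adjusted p = 1.5e-05). In COLO-357 GPX2 lay near the top of the scale, where the highest mean level of any tested probe was 14.91 log2. A rise as large as the 2.92 log2 of AsPC-1 could thus not have been seen there. DEFB1, an antimicrobial defensin, stood at -0.37 ± 0.32 log2 in COLO-357 and 3.08 in AsPC-1 (difference -3.45 ± 0.46, adjusted p = 2.3e-04). TMEM86B, a lysoplasmalogenase, stood at 0.07 ± 0.40 in COLO-357, where it was dim, and 2.25 in AsPC-1. All 3 are listed for AsPC-1 responses, which were selected in part on the AsPC-1 vehicle arrays or on knockdown arrays not analysed here.

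NFIX differed in direction, falling in COLO-357 and rising by 0.93 log2 in AsPC-1 (adjusted p = 0.049), a difference of -2.39 ± 0.35 log2 (adjusted p = 3.5e-04). LOC389342 fell in COLO-357 and stood at 0.20 log2 in AsPC-1, a difference of -2.12 ± 0.39. On the positive side ADAMTSL4 stood at -0.38 log2 in AsPC-1 (difference 1.60 ± 0.48, adjusted p = 0.042), STMN3 at -0.27 (1.47 ± 0.28), TPM3, a tropomyosin, at -0.45 (1.43 ± 0.26), IL8 at -0.70 (1.41 ± 0.34) and PMP22 at 0.14 (1.38 ± 0.21, adjusted p = 4.5e-04). TPM3 had 10.88, 10.76 and 11.23 at 72 h in COLO-357 and 9.90, 9.93 and 10.12 at 24 h.

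Some COLO-357 changes had a like change in AsPC-1. Of the 153 named genes that changed, 15 (9.8%) were called in AsPC-1 in the same direction and 1 in the opposite direction. In AsPC-1 2.16% of all probes were called. The 9.8% is not read as a result, because the AsPC-1 drug lists rest in part on the same AsPC-1 vehicle arrays. Of the 604 named genes, 179 stand on the AsPC-1 drug list at 24 h and 92 on the one at 72 h. The difference between the lines, which uses the same COLO-357 arrays, was called for 72 of the 153 (47.1%). CYR61 fell by 1.38 on the log2 scale in AsPC-1 (adjusted p = 0.012), beside 1.32 in COLO-357, with a difference of 0.06 ± 0.41 and an adjusted p of 0.95 that does not show them to be equal. DHCR7 fell by 1.02 in AsPC-1 beside 0.70 in COLO-357, and PMEPA1 by 0.66 beside 0.62. VPS37D rose by 1.09 log2 in AsPC-1 and LXN by 0.63, and of the interferon genes UBE2L6 rose by 1.14, while IFIT3 stood at -0.36 there (difference 1.08 ± 0.32, adjusted p = 0.037).

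**Figure D4:**
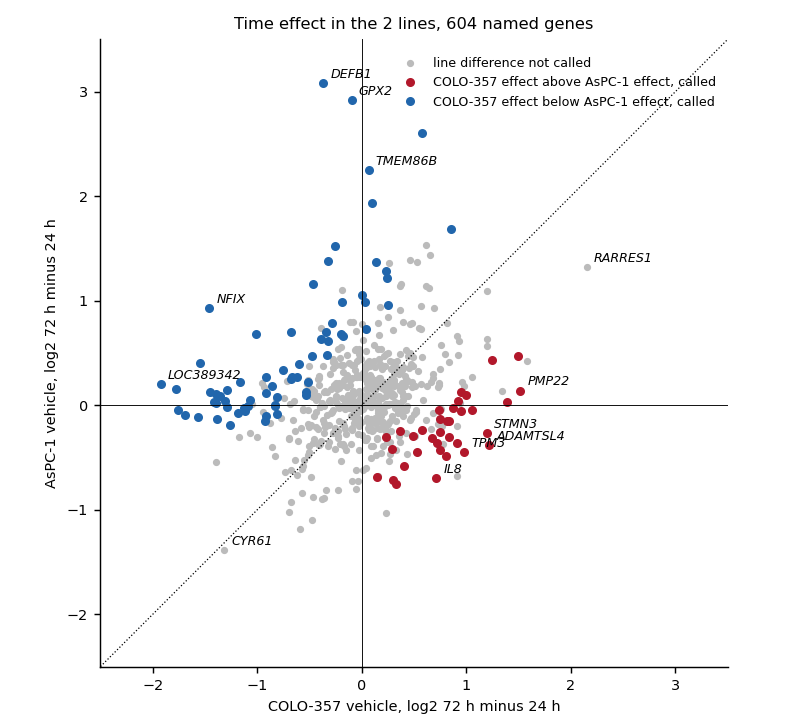
Log2 change at 72 h minus 24 h in vehicle cultures of COLO-357 (horizontal axis) and AsPC-1 (vertical axis) for 604 named genes, with the dotted line where both are equal. Red and blue points are genes whose difference between the lines was called, positive or negative: GPX2 and DEFB1 lie near 0 in COLO-357 and near 3 in AsPC-1, and CYR61 lies on the dotted line.

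Between vehicle and PD-0332991 the time effect in COLO-357 differed for 456 probes (1.84%), 146 with the vehicle effect above the drug effect and 310 below it. Over all probes the 2 time effects had a Pearson r of 0.62, as a description; arrays of both courses were dimmer at 72 h. Of the 75 mitosis genes 56 had a vehicle effect below the drug effect: under drug 67 of them rose between the times, with a median of 1.12 log2, beside -0.16 in vehicle. These genes are named because drug arrays at 24 h were low against the vehicle arrays used here, so their count is a description. BIRC5 stood at 0.04 ± 0.16 log2 in vehicle and 2.29 under drug (difference -2.25, adjusted p = 2.0e-05).

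Genes that rose in vehicle and not under drug included ACOX2, at -0.07 log2 under drug (difference 1.56, adjusted p = 0.0037), LXN, at 0.00 (difference 1.20, adjusted p = 0.0020), and CASP9, which fell by 0.62 under drug (difference 1.61, adjusted p = 0.0013). CYR61 and LFNG, which fell in vehicle, stood at 0.64 and 0.31 log2 under drug (differences -1.96, adjusted p = 0.012, and -1.86, adjusted p = 0.013). These 5 genes are named through the authors' drug list at 72 h, which uses arrays of the same contrast, so their differences are given as descriptions. NFIX fell by 1.30 on the log2 scale under drug, close to its fall in vehicle (difference -0.15, adjusted p = 0.94), and LOC389342 fell by 1.80 (difference -0.13, adjusted p = 0.96).

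Because brightness moved with time, each named change was refitted under 4 other scalings. The 30 largest kept their sign and stayed called under all 4, with rises of at least 0.54 log2 and falls of at least 0.90. Of all 153 named genes that changed, 102 stayed called in the same direction under all 4, 81 stayed called whichever 1 of the 6 arrays was left out, and 147 stayed called when the 6 arrays were fitted alone.

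**Figure D5:**
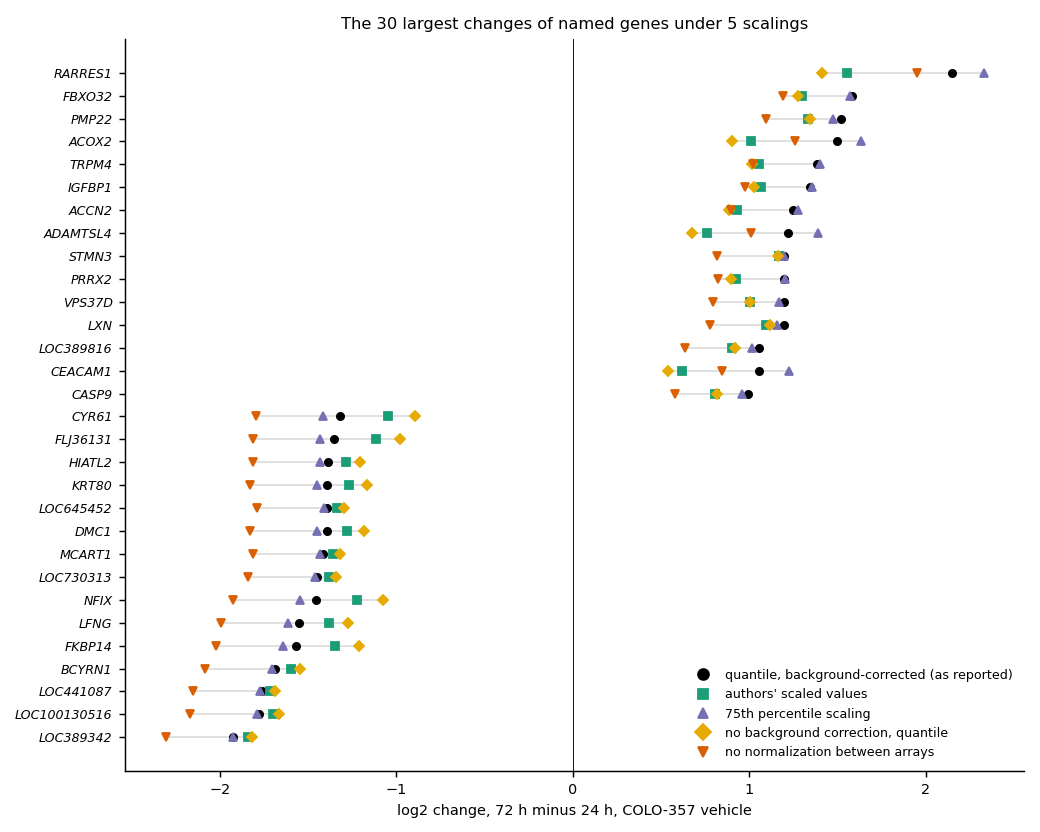
Log2 change at 72 h minus 24 h in COLO-357 vehicle cultures for the 30 largest changes of named genes, 1 row per gene, under 5 scalings shown by colour and shape. All 30 keep their sign; with no normalisation between arrays (orange) the falls are larger and most rises smaller.

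The largest change in each direction lay in a probe without a name. ILMN_1721354 had log2 signals of 9.44, 8.06 and 8.90 at 72 h, against 5.26, 6.22 and 5.43 at 24 h, a rise of 3.17 ± 0.31 log2 (8.99-fold, adjusted p = 1.8e-06). ILMN_1740426 rose by 2.18 ± 0.21 log2, while ILMN_1687335 fell by 1.98 on the log2 scale (SE 0.25). ILMN_2329735 fell by 1.86 (SE 0.16, adjusted p = 4.9e-07), which is less than the fall of the named LOC389342.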

How the data were processed

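The authors deposited, for each array, the summarised intensity of every probe on a linear scale and, per the file headers, its detection p-value; the authors' value table multiplies each deposited intensity by 1 factor per array. The authors' 6 deposited lists gave a ratio, a parametric p-value and the gene symbols. No source used here names the software behind the signals. Of the symbols 462 equal a current RefSeq symbol (GRCh38.p14), 74 an older one, 30 matched by the gene ID in a LOC name and 38 did not match; 2 listed probes had no symbol and 1 had a number.

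Intensities were background-corrected with the detection p-values, quantile-normalised over 24 arrays and log2-transformed with an offset of 16 (neqc, limma 3.58.1, R 4.3.3). Of 47223 probes, 24750 were tested, those detected (p under 0.05) on 3 arrays or more. One mean per group was fitted (lmFit, eBayes, 16 residual and 5.84 prior degrees of freedom), with two-sided p-values adjusted by Benjamini-Hochberg over all probes and called under 0.05. Figures used matplotlib 3.10.9 (Python 3.11.15). The procedure was tested on simulated data. The number of arrays limits the precision.

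Named are the 15 largest called rises and falls without overlap between times, list members, the 5 largest called line differences each way and 2 unnamed probes each way. Some listed genes are counted but not reported here by name. Members and lists were chosen with earlier results of these data known. The deviations of same-numbered 72 h and 24 h arrays from their group means had r = 0.18, 0.36 and 0.13 for numbers 1, 2 and 3. Arrays of unlike number had r from -0.253 to 0.125, so number 3 hardly stood above the highest of these. Replicate number was also fitted as a block, a pairing that comes from these correlations, not from the labels. The alternatives changed scaling, background, offset, filter, arrays fitted and weights.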

Additional observations from a re-analysis of the deposited data

Results flagged for a closer look

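The time effect in vehicle cultures differed between COLO-357 and AsPC-1 for 2071 probes, and between vehicle and PD-0332991 in COLO-357 for 456, each by a test of the difference itself. The difference between lines was called for 102 of the 604 named genes. Given here (COLO-357 minus AsPC-1, log2) are the 26 among the largest rises, falls and line differences. Positive ones were found for ADAMTSL4 (1.60), STMN3 (1.47), TPM3 (1.43), IL8 (1.41), PMP22 (1.38), TRPM4 (1.36), CEACAM1 (1.10), ACOX2 (1.03), CASP9 (0.89) and ACCN2 (0.82). Negative ones were found for DEFB1 (-3.45), GPX2 (-3.02), NFIX (-2.39), TMEM86B (-2.18), LOC389342 (-2.12), LFNG (-1.96), LOC100130516 (-1.94), LOC441087 (-1.71), BCYRN1 (-1.60), LOC730313 (-1.57), DMC1 (-1.50), FKBP14 (-1.45), MCART1 (-1.45), FLJ36131 (-1.44), LOC645452 (-1.42) and HIATL2 (-1.26). Groups of 3 arrays are too small for a test of single arrays that stand apart.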

How the results depend on the processing

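Of 833 refitted values of the 40 genes named by size, 812 kept direction and call, 21 kept direction and lost the call and 0 reversed. With the replicate block, 4563 probes were called for COLO-357 vehicle 72 h against 24 h, 2312 for the difference between lines and 546 for that between vehicle and drug, and 150 of the 153 named calls held. The other counts were, in that order, 2240, 665 and 144 at an adjusted p under 0.01, 541, 811 and 267 at 2-fold or more, and 11446, 6447 and 248 with no normalisation between arrays. Array weights gave 6566 for time and 1239 for vehicle against drug, the authors' scaled values 1212 for vehicle against drug (1004 positive, 208 negative) and, between lines, 751 positive and 2008 negative, and the compared groups alone 912 between lines. Leaving out 1 array gave 2799 to 3833 for time, 1303 to 2628 between lines and 271 to 559 for vehicle against drug. The lowest counts were without COLO-357 vehicle replicate 2 at 72 h for time and without replicate 1 at 24 h for both differences. Of single genes, ADAMTSL4 lost its time call in 4 fits and its line difference in 11, and TMEM86B its line difference in 3. Dim probes were called least often. The causes of these changes were not tested.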
